A study of Mus musculus with 14 samples.

Results

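The comparison described here is that of early blood cells taken on day 10 with cells taken on day 17, in the first of 2 deposited count tables of a mouse study. The cells were found by their column labels and by 2 limits, at least 500 detected genes and at least 10000 counts in a well barcode. These limits kept 395 of the 1010 cells that pass them in the whole series, 107 from day 10 and 288 from day 17. Day 10 is 1 mouse (m4533), sorted onto plates 13, 14 and 15, and day 17 is 1 other mouse (m4528), sorted onto plates 6, 7, 8 and 9. Both days have the same cell label, Lin- Tom+, where Lin- is the usual name for cells without the surface proteins of mature blood lineages, and the labels do not spell out Tom+. The study traced the output of adult blood stem cells under steady conditions by an inducible label, and each sorted cell was sequenced at the 3′ end of its transcripts by a modified Smart-seq2 method. The start of the day count, the allele and agent behind the tracer, and the strain, sex and age of the mice are not in the labels. With 1 mouse per day, age of the label, mouse and plate cannot be told apart, so levels and plate values are given without any statistical test. Plates are wells of the same animal and show the spread within it.

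Blood stem cells sit at the top of a hierarchy in the marrow and divide rarely. Their progeny pass through multipotent progenitors and then take on the genes of one lineage, such as the granule proteases of neutrophils, the lysosomal and surface proteins of monocytes, the histamine pathway of basophils and mast cells, the adhesion receptors and granule proteins of megakaryocytes, or the haemoglobin pathway of red cells. A label switched on in stem cells is first seen in them and afterwards in their descendants, and megakaryocyte progenitors share many genes with stem cells.

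The day 10 cells held 40041487 counts and the day 17 cells 64257177. A day 10 cell was deeper, with a median of 286917 counts (range 20121 to 1337184) against 163429.5 (20885 to 903269) at day 17. Plate medians ran from 243653 to 326591 counts at day 10 and from 135662 to 191486 at day 17, and 31 to 43 cells were kept per day 10 plate against 51 to 85 per day 17 plate. The 7 plates drew on the same 96 well barcodes, and any 2 of them shared 13 to 72. Whether counts are of reads or of unique molecules was not given in the sources used here, and the intervals below cover counting error only.

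Levels are given in CPM, the usual scaling of a gene's counts by the total counts of a library, here of all kept cells of a plate or of a mouse. In such sums, more cells that use a gene and more RNA of it per cell cannot be told apart. Plate values always stand in the order 13, 14, 15 for day 10 and 6, 7, 8, 9 for day 17. A gene is called higher or lower at day 17 here when the 2 mouse sums differ at least 2-fold and all 4 day 17 plates lie on one side of all 3 day 10 plates. Of 8688 genes with a mean of at least 10 CPM, 296 were higher at day 17 (3.41% of those tested) and 421 were lower (4.85%). Counts of called members in the lists below stand against these shares, and a list near them does not differ from all genes. The fold limit alone, with overlapping plates allowed, passed 641 and 1043 genes, and the median log2 ratio over all genes tested was -0.11.

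**Figure D1:**
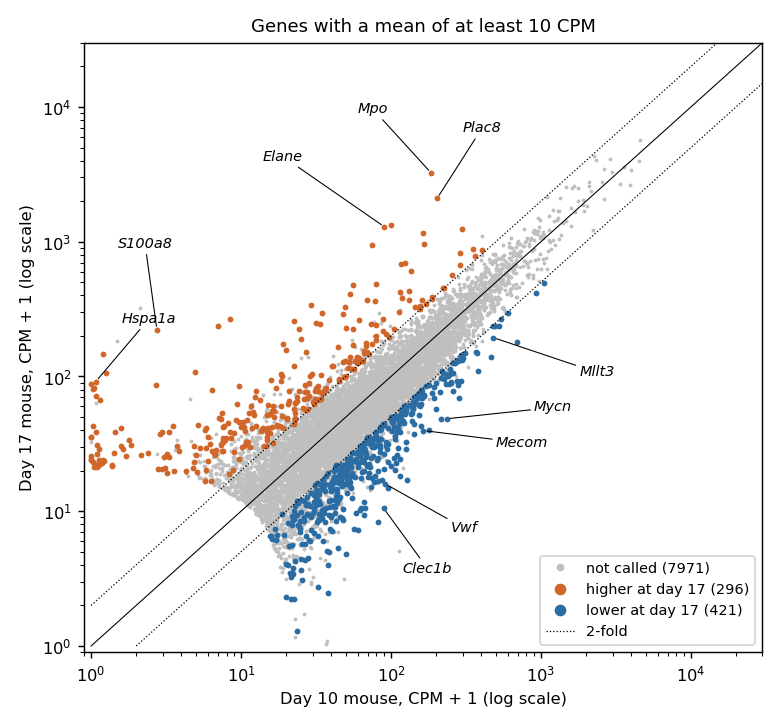
Level of each of the 8688 genes in the day 17 mouse (y axis, CPM + 1, log scale) against the day 10 mouse (x axis, CPM + 1, log scale); orange marks the 296 genes called higher at day 17, blue the 421 called lower, and dotted lines the 2-fold limit. Mpo, Elane and Plac8 lie far above the line of equal levels, and Mecom, Mycn, Vwf and Clec1b lie below it.

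The calls rested on few cells. Among genes called higher, the median number of cells that together held 50% of a gene's counts was 2 at day 10 and 12 at day 17, and among genes called lower the medians were 5 and 7 cells. Recounting was done in 5 other ways: the mean of single-cell CPM, TMM scaling (a trimmed-mean scaling of plate sums), every cell thinned to 20000 counts, the deepest cells left out (those over 464722 counts), and the highest cell of each gene on each plate left out. Under all 5, 129 of the 296 higher genes and 69 of the 421 lower genes were called again in the same direction. The genes described at length below are in that smaller set unless the text says otherwise.

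Genes of the neutrophil lineage were far higher in the day 17 mouse. Of 18 marker genes on the list, 17 reached the level limit, 14 of them were called higher and none lower, with a median log2 ratio of 3.74 against -0.11 over all genes. The summed level of the list was 542, 722 and 2096 CPM on the day 10 plates and 11927, 10304, 11990 and 7073 CPM on the day 17 plates. Every day 17 plate lay above every day 10 plate. In 2 other day 17 mice of the second table, which was made separately, the same sum was 7372 and 7846 CPM. Levels differ widely between the tables. Ribosomal protein genes, for example, summed to 30710 CPM in the day 17 mouse of the first table and to 49987 and 52650 CPM in those 2 mice. Their values are thus given for direction only, and a shift between tables cannot be told from one between days.

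The 300 bases around the start sites of the 3 protease and peroxidase genes with the largest levels among these are shown, since the 3 genes were higher together at day 17. They are RefSeq sequences on GRCm38.p6, written 5′ to 3′ on the strand of the gene, from 250 bases before to 50 bases after the start site. Mpo lies at chr11:87793534-87793833 on the plus strand, Elane at chr10:79886062-79886361 on the plus strand and Ctsg at chr14:56102525-56102824 on the minus strand. For Mpo the GENCODE gene start, given below, lies inside this window before the RefSeq start site, so the sources place the start differently.
Mpo: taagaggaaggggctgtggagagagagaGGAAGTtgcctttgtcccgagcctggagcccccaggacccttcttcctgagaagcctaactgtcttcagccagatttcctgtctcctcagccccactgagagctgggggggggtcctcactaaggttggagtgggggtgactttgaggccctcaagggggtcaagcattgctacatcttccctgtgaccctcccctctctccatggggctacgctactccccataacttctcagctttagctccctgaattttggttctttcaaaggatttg
Elane: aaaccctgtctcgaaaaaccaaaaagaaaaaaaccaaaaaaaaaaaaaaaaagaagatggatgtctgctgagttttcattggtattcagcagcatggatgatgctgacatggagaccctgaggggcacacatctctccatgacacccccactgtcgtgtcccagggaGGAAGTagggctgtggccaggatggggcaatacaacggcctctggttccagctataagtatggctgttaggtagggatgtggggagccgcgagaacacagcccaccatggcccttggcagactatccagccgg
Ctsg: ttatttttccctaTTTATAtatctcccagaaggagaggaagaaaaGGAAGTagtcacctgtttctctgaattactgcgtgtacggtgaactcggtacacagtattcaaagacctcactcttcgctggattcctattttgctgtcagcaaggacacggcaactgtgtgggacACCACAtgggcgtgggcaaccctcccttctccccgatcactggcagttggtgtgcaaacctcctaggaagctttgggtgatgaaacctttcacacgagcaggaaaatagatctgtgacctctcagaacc
Capitals mark exact matches, on either strand, to 5 short motifs: GGAAGT for ETS factors, TGTGGT for RUNX factors, TTGCNNAA for C/EBP factors, GATAA for GATA factors and TATAAA for the TATA box. Each of the 3 windows held 1 ETS match, and the Ctsg window also held 1 RUNX match (ACCACA as printed) and 1 TATA match (TTTATA as printed). No exact C/EBP or GATA match lay in any of the 3. Over the first promoter of all 27025 genes in the same table, 24.1% held the ETS letters, 16.9% the RUNX letters, 10.8% the C/EBP letters, 25.8% the GATA letters and 14.2% the TATA letters. Such short matches are a description of the letters, not of binding.

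Mpo encodes myeloperoxidase, the main enzyme of neutrophil primary granules (gene at chromosome 11, 87793581 to 87804413, GENCODE release M21 on GRCm38). Its level was 7.5, 3.26 and 555 CPM on the day 10 plates and 4812, 3422, 2734 and 1954 CPM on the day 17 plates, and all 4 day 17 plates lay above every day 10 plate. The mouse sums were 184 and 3242 CPM, a ratio of 17.6 (counting interval 17.2 to 18). Plate 15 stood apart within day 10. A single cell of that plate, with 938144 counts, held 74.0% of all day 10 Mpo counts at 5813 CPM, while the median of the other cells of its plate was 118 CPM. Without plate 15 the log2 ratio of Mpo went from 4.14 to 9.34. Mpo counts were in all 31 cells of plate 15 (lowest 58.0 CPM) and, at day 17, in all 288 cells. The median day 17 cell stood at 11.0 to 17.2% of the summed level of its plate, and low counts of a gene across a whole plate are described with Prg2 below. At day 17 the lowest cell of each plate had 523, 308, 195 and 134 CPM, the median cell 828, 457, 301 and 284 CPM, and the highest cell 18625, 12249, 8825 and 9616 CPM.

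Elane, neutrophil elastase, stood at 2.08, 4.83 and 266 CPM on the day 10 plates and 1320.1, 1548, 1420.3 and 938 CPM on the day 17 plates. Ctsg, cathepsin G, another protease of the same granules, stood at 2.17, 11.6 and 289.8 CPM on the day 10 plates and 1794, 1394, 1311 and 856 CPM on the day 17 plates. For both, plates 13 and 14 were close to 0 and plate 15 held nearly all day 10 counts. The mouse sums went from 89.3 to 1290 CPM for Elane and from 99.6 to 1332 CPM for Ctsg, which are 14.4-fold and 13.4-fold higher. The same plate 15 cell held 88.6% of the day 10 Elane counts, 86.8% of the Ctsg counts and 93.4% of those of Ms4a3, a membrane protein of granulocyte-monocyte progenitors. Ms4a3 had 1.81, 0.691 and 223 CPM on the day 10 plates and 959.5, 1063, 1011 and 772 CPM on the day 17 plates. Without plate 15 the log2 ratios were 8.44 for Elane, 7.43 for Ctsg and 9.68 for Ms4a3, in place of 3.85, 3.74 and 3.68. Most of the day 10 level of these 4 genes was thus held by 1 of 107 cells.

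Prtn3 behaved otherwise. It encodes proteinase 3, also a primary granule protease, and its level was 233, 343 and 288 CPM on the day 10 plates and 1252, 1345, 1403 and 1004 CPM on the day 17 plates. All 3 day 10 plates carried it at over 200 CPM, and the sums differed 4.19-fold. In the other day 17 mice it stood at 963 and 995 CPM.

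Genes of later granules were also higher at day 17, at lower levels and on fewer cells. S100a8, a subunit of the calcium-binding protein calprotectin of maturing neutrophils, had 0.542, 0.879 and 3.83 CPM on the day 10 plates and 52.8, 59.4, 568 and 283 CPM on the day 17 plates. The day 17 plates fell into a lower pair, plates 6 and 7, and a higher pair, plates 8 and 9, all above day 10. The ratio of the sums was 126 (counting interval 99.8 to 162), and 3 cells held 50% of the day 17 counts. Fcnb, a ficolin of bone marrow neutrophils, had 0.0903, 0.0628 and 0 CPM on the day 10 plates and 38.7, 42, 146 and 113 CPM on the day 17 plates, with 2 counts in all of day 10. Its ratio of 1631 has a counting interval of 451 to 13474. Camp, the cathelicidin of secondary granules, was called higher with 0.181, 0.377 and 0 CPM on the day 10 plates and 2.87, 1.1, 486 and 171 CPM on the day 17 plates, but 1 cell held 50% or more of its day 17 counts and the call was repeated in 2 of the 5 other ways. On plate 8, where the highest cell had 17236 CPM of Camp, every one of the 51 cells had a count of it and the plate median was 99.5 CPM, and the cause of this was not tested.

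Of 13 tested myeloid transcription factors, 2 were called, both higher, and the median log2 ratio was 1.35. Cebpe, the C/EBP factor of late granulocyte maturation, was higher with 0.0903, 4.83 and 14.2 CPM on the day 10 plates and 40.8, 39.9, 24.2 and 54.7 CPM on the day 17 plates. Gfi1, a repressor needed for neutrophil fate, was not called, at 0.0903, 0 and 25.8 CPM on the day 10 plates and 33.2, 29.3, 4.76 and 21.6 CPM on the day 17 plates, since plate 15 overlapped the day 17 plates. Spi1, which encodes PU.1, was called at 62.3, 95.7 and 69.6 CPM on the day 10 plates and 213, 235, 139 and 194 CPM on the day 17 plates, in 2 of the 5 other ways again. Csf2rb, the shared beta chain of the receptors for GM-CSF and interleukin 3, went from 0.125 to 28.1 CPM, and it was the only one of 14 cytokine receptor genes called higher.

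**Figure D2:**
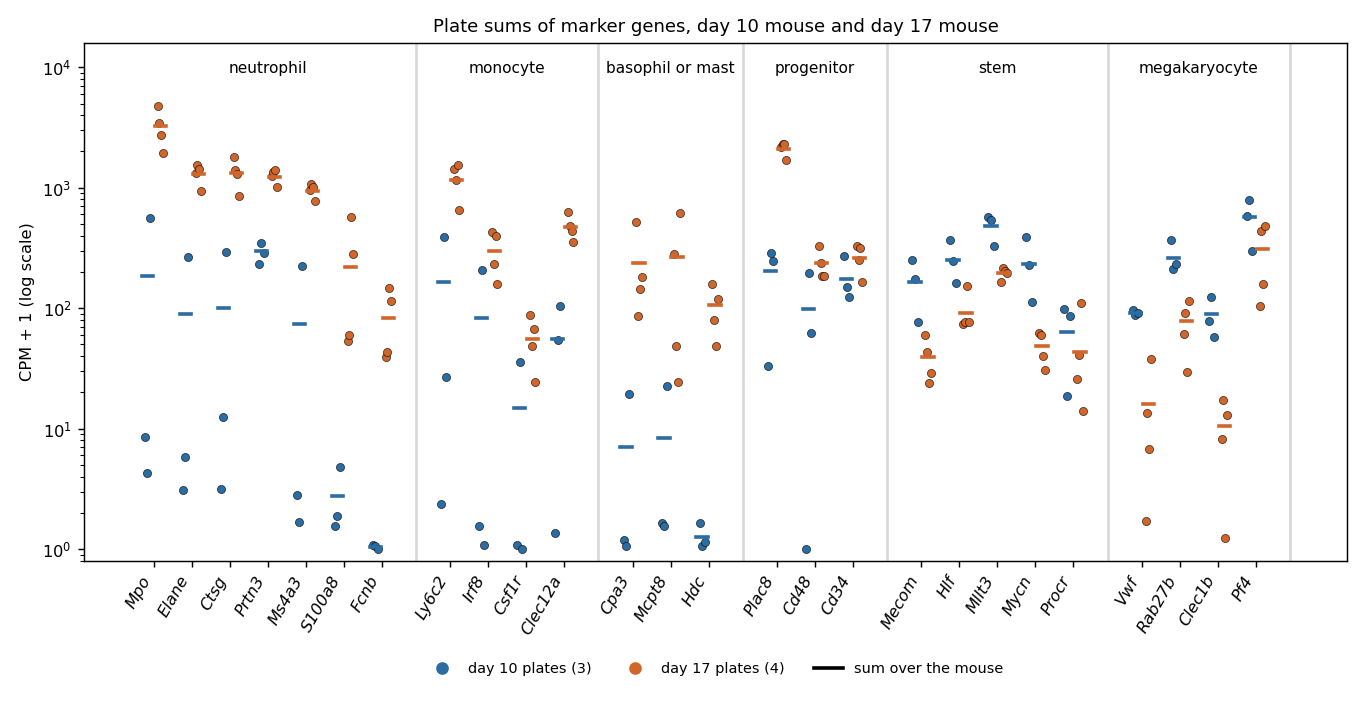
Plate sums of 26 marker genes (y axis, CPM + 1, log scale), grouped by lineage list along the x axis; blue points are the 3 day 10 plates, orange points the 4 day 17 plates, and short lines the sum over each mouse. For Mpo, Elane, Ctsg and Ms4a3 one blue point, plate 15, lies far above the other blue points, and for Mecom, Mycn, Vwf and Clec1b all orange points lie below all blue ones.

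Monocyte genes were higher at day 17 for 5 of the 14 tested markers and lower for none, with a median log2 ratio of 1.92. Their summed level was 284, 2293 and 444 CPM on the day 10 plates and 6879, 4436, 5594 and 2725 CPM on the day 17 plates. Plate 14 was the high plate of day 10, and plate 9 the low one of day 17. Ly6c2, a surface protein of inflammatory monocytes and their progenitors, had 1.36, 388 and 25.7 CPM on the day 10 plates and 1436, 1167, 1533 and 657 CPM on the day 17 plates, which is 7.15-fold higher over the sums, though its counts cannot be told from those of its near copy Ly6c1 with certainty. Clec12a, a lectin receptor of myeloid cells, had 0.361, 53.1 and 103 CPM on the day 10 plates and 622, 480.1, 435 and 351 CPM on the day 17 plates. Ccl9, a chemokine made by myeloid progenitors and macrophages, had 0, 109 and 14.6 CPM on the day 10 plates and 298, 362, 337 and 320.4 CPM on the day 17 plates. The other 2 called members, F13a1 and Mpeg1, went from 78.9 to 481 CPM and from 0.624 to 27.7 CPM.

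The 2 best-known regulators of the monocyte list were not called. Irf8, the transcription factor of monocyte and dendritic cell progenitors, had 0.542, 206 and 0.0767 CPM on the day 10 plates and 427, 232, 400.2 and 158 CPM on the day 17 plates, and plate 14 reached into the day 17 range. Csf1r, the receptor for macrophage colony-stimulating factor, had 0.0903, 34.5 and 0 CPM on the day 10 plates and 86.5, 47.2, 65.7 and 23.4 CPM on the day 17 plates, again with plate 14 inside the day 17 range. In each case few cells of plate 14 carried the day 10 counts. 1 cell held 50.6% of the day 10 Irf8 counts, another held 82.8% of the Csf1r counts and a further one held 36.7% of the Ly6c2 counts. Without plate 14 the median log2 ratio of the list was 7.80, and without plate 15 it was 1.37. Of 5 tested dendritic cell markers none was called in either direction.

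Of 7 tested basophil and mast cell markers, 3 were higher at day 17 and none lower. Hdc, the enzyme that makes histamine, had 0.632, 0.0628 and 0.153 CPM on the day 10 plates and 159, 79.2, 47.5 and 117 CPM on the day 17 plates, a ratio of 420.1 (counting interval 228 to 877). Cpa3, the carboxypeptidase of mast cell granules, had 0.181, 0.0628 and 18.3 CPM on the day 10 plates and 515, 84.4, 142 and 179 CPM on the day 17 plates, and Mcpt8, a basophil protease, had 0.632, 0.565 and 21.6 CPM on the day 10 plates and 281, 47.9, 23.3 and 619 CPM on the day 17 plates. For Cpa3 and Mcpt8 plate 15 was the highest of day 10, and the cell that held most Mpo there also held 96.3% of the day 10 Cpa3 counts and 90.3% of the Mcpt8 counts. Prss34, a basophil protease, was not called, with 3.61, 0.251 and 0.0767 CPM on the day 10 plates and 427, 0, 0 and 731 CPM on the day 17 plates, as plates 7 and 8 had no count. Summed over the list, which also holds the more widely used factor Gata2, the plates overlapped, with 513, 255 and 352 CPM at day 10 and 1654, 398, 369 and 2277 CPM at day 17. In the other day 17 mice Hdc stood at 48.4 and 56.9 CPM and Cpa3 at 129 and 233 CPM.

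Eosinophil markers passed in 3 of 288 day 17 cells and in none of 107 day 10 cells by the rule for counting cells given below. Prg2, the major basic protein of eosinophil granules, had 0.632, 0.816 and 0 CPM on the day 10 plates and 13.5, 0.183, 422 and 334 CPM on the day 17 plates and was not called. Of 3 tested eosinophil markers 1 was higher, Siglecf, an inhibitory receptor of eosinophils, with 0, 0.0628 and 16.4 CPM on the day 10 plates and 28.6, 18.2, 19.7 and 38.6 CPM on the day 17 plates, and its call was repeated in 1 of the 5 other ways. The sums of the list did not overlap between days, with 0.903, 0.879 and 16.6 CPM at day 10 and 58.8, 23.9, 550.4 and 447 CPM at day 17. On plate 8 a single cell reached 127190 CPM and held 84.6% of the Prg2 counts, while all 51 cells of the plate had a count and the plate median was 65.8 CPM. Plate 9 had the same shape, with 1 cell at 90197 CPM and a median of 84.0 CPM over 70 cells. A low level of a gene in every well beside 1 very high cell was thus measured for Prg2 on these 2 plates, and its cause was not tested. Every cell also had a count of S100a8 on plate 8, of Prss34 on plates 6 and 9, and of Mcpt8 on plate 9. The highest cells there stood at 16908, 76090, 26193 and 20731 CPM. A count in every cell was not found for every gene and plate: for Car1 on plate 8, 1 cell had 2991 CPM and 45.1% of cells had a count, and for S100a8 on plates 6 and 7, 60% and 50% of cells had a count.

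Among multipotent progenitor markers, 2 of 10 tested were higher at day 17, Plac8 and Cd53, and none was lower, with a median log2 ratio of 0.68. Plac8, a small cysteine-rich protein of myeloid progenitors (chromosome 5, 100553725 to 100572245), had 32.1, 285 and 245 CPM on the day 10 plates and 2180.4, 2311, 2287 and 1709 CPM on the day 17 plates and was 10.4-fold higher over the sums. It reached the highest level of all genes called higher after Mpo. Cd53, a leukocyte tetraspanin, had 0.0903, 77.1 and 0.153 CPM on the day 10 plates and 399.7, 227, 189.9 and 164 CPM on the day 17 plates. The other 8 markers of the list were not called. Cd34, the sialomucin that parts progenitors from stem cells in the mouse, had 268, 148 and 123 CPM on the day 10 plates and 326, 248, 317 and 164 CPM on the day 17 plates, and Cd48, an adhesion protein absent from stem cells, had 0, 196 and 61.6 CPM on the day 10 plates and 326, 235, 184 and 182 CPM on the day 17 plates. Flt3, the receptor tyrosine kinase of lymphoid-primed progenitors, had 51.9, 16.4 and 0.0767 CPM on the day 10 plates and 34.9, 22.5, 15.3 and 22.5 CPM on the day 17 plates, and Cdk6, the kinase that lets stem cells leave quiescence, had 168, 233 and 275 CPM on the day 10 plates and 397, 543, 296 and 319 CPM on the day 17 plates. The plates of Cdk6 did not overlap, but its sums differed 1.71-fold, under the 2-fold limit.

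Lymphoid genes were few. Nkg7, a granule membrane protein of cytotoxic cells that is also found in early progenitors, was higher with 47.3, 166 and 264 CPM on the day 10 plates and 908, 983, 967 and 978 CPM on the day 17 plates, and all 4 day 17 plates lay between 908 and 983 CPM. Dntt, the template-free polymerase of lymphocyte receptor assembly, had no count at day 10 and 0.0586, 124, 0.159 and 9.92 CPM on the day 17 plates, and its call was lost without plate 7. Ighm, the immunoglobulin mu constant region, went from 77.5 to 363 CPM and was not called with cells thinned to 20000 counts. Of the marker lists for mature T or NK cells, stromal or endothelial cells and macrophages, 1 gene each reached the level limit and none was called.

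Stem cell genes were lower at day 17. Of 13 tested markers, 6 were called lower (Mecom, Hlf, Mllt3, Meis1, Tek and Ctnnal1) and none higher, all 13 ratios were below 0, and the median log2 ratio was -1.03. The summed level was 2859, 2333 and 1569 CPM on the day 10 plates and 914, 1085, 1465 and 987 CPM on the day 17 plates. The lowest day 10 plate was plate 15 and the highest day 17 plate was plate 8, and these nearly met. The other day 17 mice had 476 and 737 CPM, below all 7 plates. The interferon response list, at 1889 and 2237 CPM in those mice, also lay below all 7 plates, so such a low sum is not particular to stem cell genes.

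Mecom, which encodes the zinc finger protein Evi1 needed to maintain stem cells (chromosome 3, 29951296 to 30548008), had 249, 175 and 75.2 CPM on the day 10 plates and 58.5, 42.1, 22.9 and 27.9 CPM on the day 17 plates. Its level was 4.22-fold lower at day 17, with 50% of the counts in 9 cells at day 10 and in 11 at day 17. Tek, the Tie2 receptor that anchors stem cells to their niche, had 38.9, 68.2 and 27.8 CPM on the day 10 plates and 10.2, 8.7, 3.81 and 12.9 CPM on the day 17 plates. Hlf, a bZIP factor largely restricted to stem cells among marrow cells, had 367, 245 and 162 CPM on the day 10 plates and 72.6, 76.3, 151 and 75.4 CPM on the day 17 plates, and Mllt3, a reader of histone acylation that supports stem cell renewal, had 575, 536 and 327 CPM on the day 10 plates and 163, 216, 202 and 195 CPM on the day 17 plates. For Hlf and Mllt3 the call was not repeated when each cell was thinned to 20000 counts, and plate 8 stood near day 10 for Hlf. Procr, the protein C receptor used to sort stem cells, was not called, with 97.3, 17.8 and 85.5 CPM on the day 10 plates and 24.7, 40.2, 109 and 13.1 CPM on the day 17 plates, and Pdzk1ip1 was not called either, at 287 and 205 CPM in the sums. Mecom and Tek were the members called in all 5 other ways.

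Of 27 stem and progenitor transcription factors tested, none was higher and 7 were lower (Mecom, Hlf, Mllt3, Meis1, Mycn, Fli1 and Gfi1b), with a median log2 ratio of -0.90. Mecom and Mycn were called in all 5 other ways. Mycn, a MYC family member expressed in stem cells (chromosome 12, 12936093 to 12941914), had 388, 226 and 111 CPM on the day 10 plates and 61, 59.3, 39.1 and 30 CPM on the day 17 plates, which is 4.92-fold lower over the sums, and its level in the other day 17 mice was 7.26 and 24.8 CPM. Meis1, the HOX partner, went from 542 to 265 CPM, and Fli1, an ETS factor of stem cells and megakaryocytes, from 295 to 143 CPM. Gfi1b, shared by the megakaryocyte and erythroid branches, went from 489.6 to 238 CPM and was called again in 1 of the 5 other ways.

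Of 19 tested brakes on the cell cycle, 16 were not called, Cdkn1c and Rbl2 were lower and Gadd45b was higher. The calls of Cdkn1c and Rbl2 were repeated in all 5 other ways and that of Gadd45b in 1. Cdkn1c, the p57 inhibitor that keeps stem cells quiescent, had 289, 174 and 198 CPM on the day 10 plates and 42.6, 51.2, 24.3 and 64.3 CPM on the day 17 plates, 4.51-fold lower at day 17. Rbl2, the retinoblastoma relative p130 of resting cells, had 169, 98.2 and 93.1 CPM on the day 10 plates and 41.2, 59.7, 32.8 and 53.4 CPM on the day 17 plates. None of the 5 D-type cyclins and their kinases was called. These sums run over all kept cells, and values within stem marker cells are given below.

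The largest falls among genes above 50 CPM included genes of no list. Smtnl1, a smoothelin-like muscle protein, had 233, 112 and 56.9 CPM on the day 10 plates and 5.45, 32.7, 22.1 and 6.45 CPM on the day 17 plates, 7.99-fold lower. Timp3, an inhibitor of matrix metalloproteases, had 174, 75.5 and 108 CPM on the day 10 plates and 8.61, 14.5, 3.17 and 37.6 CPM on the day 17 plates. No day 17 plate reached a day 10 plate for either gene, and the day 17 plates themselves were spread widely. Jam2, a junction adhesion protein of stem cells, had 91.2, 59.5 and 48.2 CPM on the day 10 plates and 15.9, 2.19, 17.9 and 0.165 CPM on the day 17 plates, and Selp, P-selectin, had 53.9, 93.1 and 55.2 CPM on the day 10 plates and 7.32, 24.8, 22.7 and 18.9 CPM on the day 17 plates. Of 15 tested homing and adhesion genes, Jam2 and Selp were the 2 lower, and 2 were higher.

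Megakaryocyte genes were lower at day 17 as well. Of 12 tested markers, 4 were lower, Vwf, Rab27b and Clec1b among them, none was higher, and all 12 ratios were below 0, with a median log2 ratio of -1.45. The summed level was 3408, 2876 and 1889 CPM on the day 10 plates and 675, 1312, 727 and 1841 CPM on the day 17 plates, where plate 9 came close to plate 15. Plates 15 and 9 were also left out together, a choice made after the data had been seen. They are the nearest plates of the 2 days for this list, so leaving them out favours more calls. Without them, 9 of 13 tested markers were lower and the median was -2.16. With the deepest cells left out the median was -0.16. Of those cells, 14 of 24 at day 10 and 2 of 28 at day 17 carried megakaryocyte markers.

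Vwf, von Willebrand factor of platelet granules (chromosome 6, 125546774 to 125686679), had 94.9, 87.1 and 90.6 CPM on the day 10 plates and 0.703, 12.5, 5.79 and 36.9 CPM on the day 17 plates. The 3 day 10 plates lay within 87.1 to 94.9 CPM, and the day 17 plates were spread widely but all below. The sums differed 6.04-fold. Rab27b, a GTPase of platelet granule release, had 364, 209.9 and 231 CPM on the day 10 plates and 60.5, 91, 28.3 and 114 CPM on the day 17 plates. Clec1b, the platelet receptor CLEC-2, had 77.1, 123 and 56.4 CPM on the day 10 plates and 7.15, 16.2, 0.238 and 12 CPM on the day 17 plates, and its call was lost with cells thinned and with the deepest cells left out. Rab27b lost its call with the deepest cells left out. Pf4, platelet factor 4, was not called, with 581, 795 and 297 CPM on the day 10 plates and 104, 439, 157 and 483 CPM on the day 17 plates, and its level in the other day 17 mice was 543 and 960.5 CPM. Itga2b, the integrin CD41, was not called, with 59.5, 239 and 149 CPM on the day 10 plates and 38.1, 88.3, 74.9 and 141 CPM on the day 17 plates.

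Erythroid genes did not part the days in the first table. Of 13 tested markers none was higher and 1 was lower, Gfi1b, and the median log2 ratio was 0.43. The summed level was 5070.1, 4649.5 and 7088 CPM on the day 10 plates and 4434, 4565, 2834 and 5317 CPM on the day 17 plates, which overlap. The other day 17 mice stood apart, with 9208 and 8985 CPM, above every plate of either day here. Klf1, the master regulator of red cell genes, had 1.26, 42.7 and 403 CPM on the day 10 plates and 247, 229, 126 and 397 CPM on the day 17 plates, and Car1, carbonic anhydrase 1 of early red cells, had 1.63, 236 and 881 CPM on the day 10 plates and 706, 591, 70.6 and 595 CPM on the day 17 plates. For both, plate 13 was close to 0 and plate 15 was as high as or higher than any day 17 plate. Without plate 15 the median log2 ratio of the list was 1.89.

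**Figure D3:**
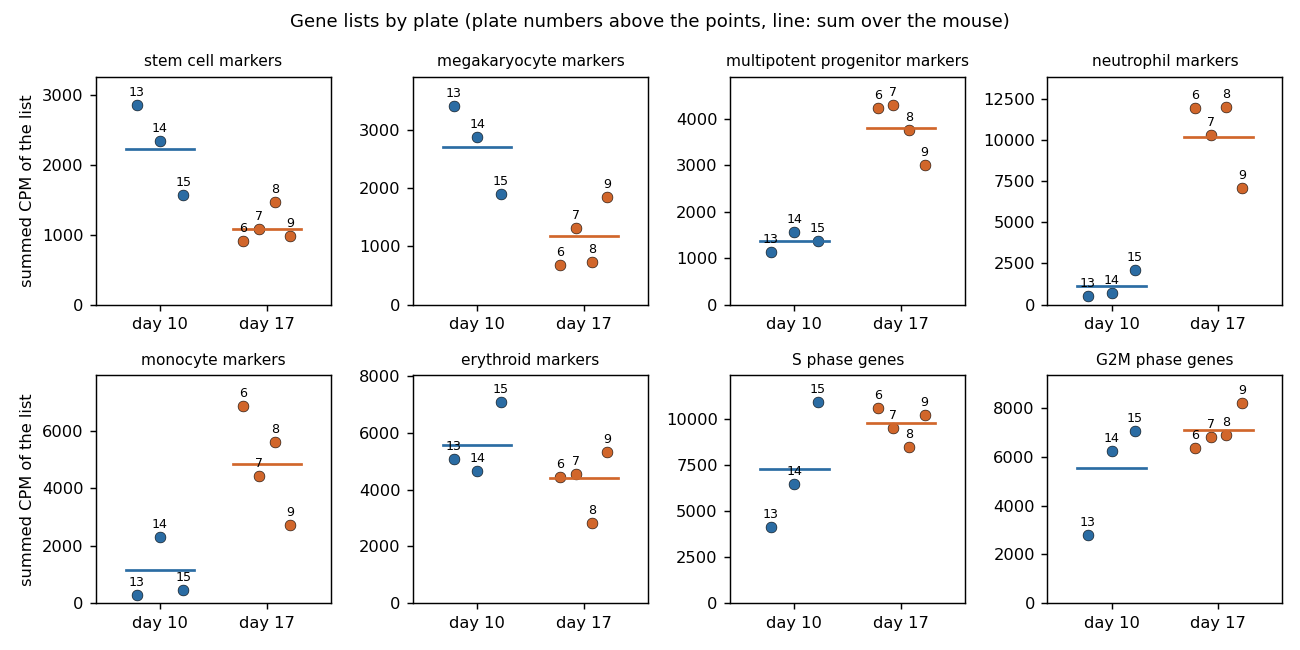
Summed level of 8 gene lists (y axes, CPM) by day (x axis), 1 point per plate with its number, and a line for the sum over the mouse. Day 10 and day 17 plates do not overlap for the stem cell, megakaryocyte, multipotent progenitor, neutrophil and monocyte lists, and they overlap for erythroid, S phase and G2M phase genes.

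The same marker lists were used to count cells. A cell was counted for a list when at least 3 of its markers stood at 100 CPM or more, and, because of the plate-wide counts described above, at no less than 0.5 times the summed level of the gene on its own plate. This second condition was chosen with the data in view, and its limit for a gene differs between plates and days. With it, 4 of 107 day 10 cells (3.74%, exact binomial interval 1.03 to 9.30%) and 74 of 288 day 17 cells (25.7%, 20.7 to 31.1%) carried neutrophil markers. Without it the shares were 7.48% and 75.3%. Exactly 3 markers, the least that counts, were on none of these cells at day 10 and on 6 at day 17, and 25 and 34 cells had 2. With each cell thinned to 20000 counts the shares were 3.74% and 28.5%. Monocyte markers were on 4 cells at day 10, all on plate 14 (3.74%), and on 72 at day 17 (25%, 20.1 to 30.4%). Of the day 17 cells, 59 carried both neutrophil and monocyte markers, as did 2 at day 10. Basophil or mast cell markers were on none of 107 cells at day 10, with an upper limit of 3.39%, and on 18 cells (6.25%, 3.75 to 9.70%) at day 17.

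Stem cell markers were on 63 day 10 cells (58.9%, 49.0 to 68.3%) and 122 day 17 cells (42.4%, 36.6 to 48.3%). By plate these were 60.6, 60.5 and 54.8% against 41.2, 45.1, 39.2 and 42.9%, with no overlap. Exactly 3 markers were on 24 and 34 of these cells, and 27 and 44 other cells had 2. With each cell thinned to 20000 counts the shares were 54.2% and 41.0%. With no minimum of counts per cell, which gave 429 and 388 cells, the direction turned, with 24.2% at day 10 and 32.5% at day 17. Multipotent progenitor markers were on 16.8% (10.3 to 25.3%) and 53.8% (47.9 to 59.7%) of cells. Megakaryocyte markers were on 34.6% (25.6 to 44.4%) and 23.6% (18.8 to 28.9%), with day 10 plates at 30.3, 37.2 and 35.5% and day 17 plates at 18.8, 24.4, 21.6 and 30%, so that plate 9 nearly reached plate 13. Erythroid markers were on 23.4% (15.7 to 32.5%) and 27.4% (22.4 to 33.0%), with overlapping plates, and without the plate condition on 31.8% and 30.2%. Classes were not exclusive. Of day 10 cells 33 carried more than 1 of 6 lists, and of day 17 cells 144 did. Stem and megakaryocyte markers met in 23 day 10 cells and 41 day 17 cells, whereas stem markers met neutrophil or monocyte markers in 2 cells on each day. Without the plate condition the first overlap held 29 and 42 cells and the second 6 and 89 cells, so the second depends on the limit. No doublet caller was run on these sorted wells. Markers of stromal or endothelial cells, of mature B or plasma cells and of T or NK cells passed in no cell of either day.

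**Figure D4:**
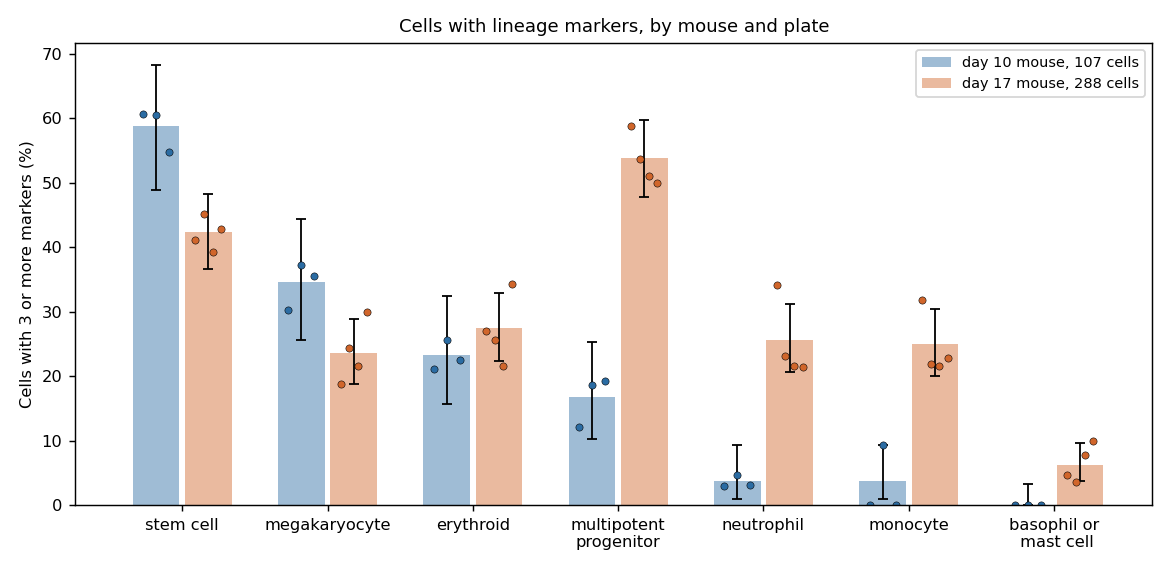
Share of cells with at least 3 markers of a list under the plate condition (y axis, percent) for 7 lists (x axis); bars are the 107 day 10 cells and 288 day 17 cells, error bars exact 95% binomial intervals, and points the single plates. Neutrophil, monocyte, multipotent progenitor and basophil or mast cell bars are higher at day 17, and the stem cell bar is lower.

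Genes of the cell cycle were counted as S phase genes, for DNA copying, and G2M phase genes, for mitosis. In the sums they were not parted by day: 1 of 45 S phase genes was higher (Mcm5, a subunit of the replication helicase) and 2 of 47 G2M genes were higher (Cdca2 and Top2a) with 2 lower (G2e3 and Nek2). The lower calls were repeated in 2 of the 5 other ways for G2e3 and in 1 for Nek2, whose log2 ratio turned from -1.32 to 3.87 without the deepest cells and 0.22 without the highest cells. The median log2 ratios were 0.48 and 0.35. The shares called higher were 2.22% of S phase and 4.26% of G2M genes, against 3.41% of all genes. The shares called lower were 0% and 4.26%, against 4.85% of all genes. Mcm5 had 100.5, 132 and 228 CPM on the day 10 plates and 425, 291, 306 and 310.3 CPM on the day 17 plates, and its call was lost without plate 13, without plate 14 and without plate 6. Mki67, which coats mitotic chromosomes, had 12.5, 224 and 115 CPM on the day 10 plates and 187, 157, 228 and 227 CPM on the day 17 plates, and Rrm2, a subunit of the enzyme that makes DNA precursors, had 1.17, 191 and 468 CPM on the day 10 plates and 499, 358, 375 and 427 CPM on the day 17 plates. Plate 13 was low for both, while plate 14 for Mki67 and plate 15 for Rrm2 lay among the day 17 plates. Leaving the deepest cells out gave another picture. The 24 deepest day 10 cells held 46.7% of that mouse's counts and the 28 deepest day 17 cells 26.7%, and without them 26 S phase genes and 23 G2M genes were higher, with medians of 1.66 and 2.12. The deepest cells were rich in cycle genes, more so beside the other cells of day 10. Median summed S phase levels were 12144 CPM in the deepest and 2098 CPM in the other cells at day 10. At day 17 they were 10556 and 4784 CPM. Leaving these cells out removed cycling cells unequally by day, so the added calls cannot be read as a difference between the days.

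Levels of cycle genes were also read cell by cell. A limit of 10000 CPM over all S phase and G2M genes, chosen after the data had been seen, parted a low from a high group, with 4 day 10 cells and 25 day 17 cells between 8000 and 12000 CPM. Above it lay 27 of 107 day 10 cells (25.2%, 17.3 to 34.6%) and 143 of 288 day 17 cells (49.7%, 43.7 to 55.6%). By plate the shares were 12.1, 25.6 and 38.7% against 48.2, 47.6, 47.1 and 55.7%, without overlap. Cells above the limit were deeper, with median counts of 645867 against 246401 at day 10 and 299749 against 100676 at day 17. Of the 27 cells at day 10, 15 carried megakaryocyte markers and 4 carried neutrophil or monocyte markers, and of the 143 at day 17 these were 37 and 73. Among cells with stem markers, 8 of 63 (12.7%) lay above the limit at day 10 and 33 of 122 (27.0%) at day 17. By plate these shares overlapped, with 0, 15.4 and 23.5% at day 10 and 17.1, 27.0, 20 and 43.3% at day 17.

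**Figure D5:**
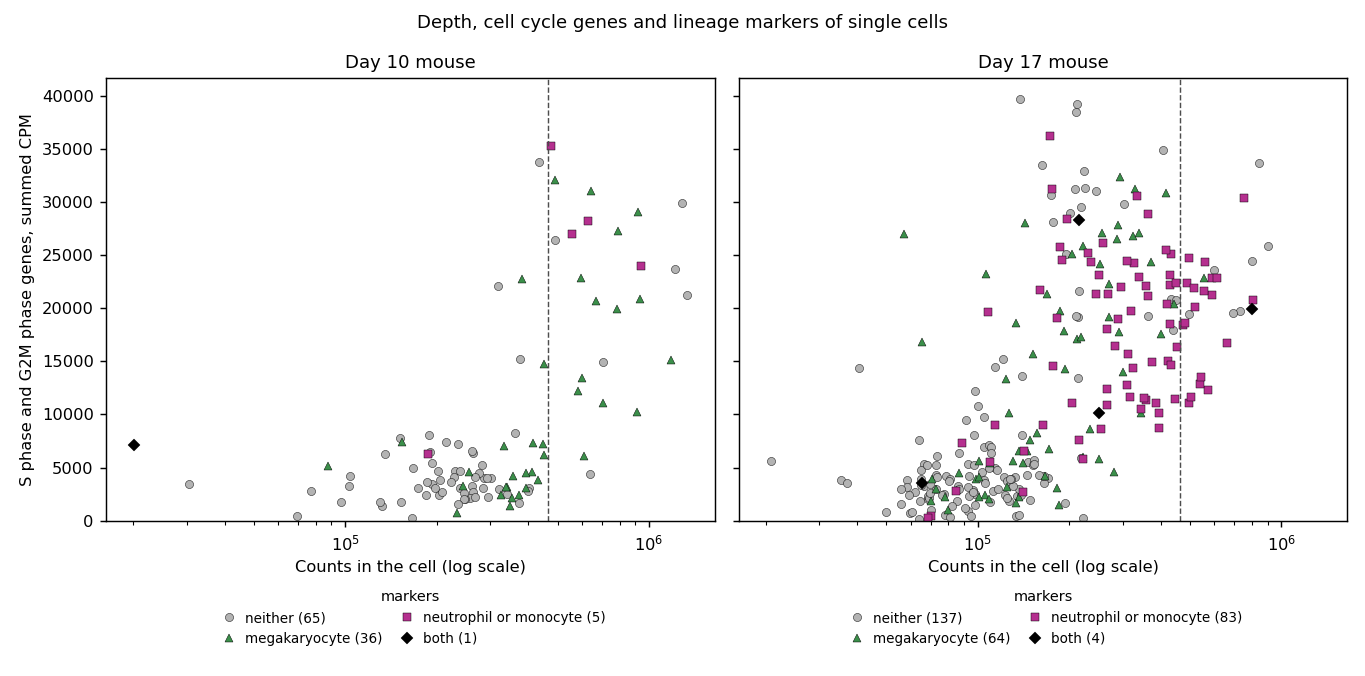
Summed level of S phase and G2M phase genes (y axis, CPM) against counts (x axis, log scale) for each of the 107 day 10 cells (left) and 288 day 17 cells (right); triangles carry megakaryocyte markers, squares neutrophil or monocyte markers, diamonds both and circles neither, and the dashed line is the depth limit of 464722 counts. The deep cells on the upper right are mostly triangles at day 10 and squares at day 17.

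Immediate early genes, which respond within minutes to growth signals and to handling of cells, had 3 of 18 tested members higher at day 17 (Fos, Fosb and Ier5), none lower, and a median log2 ratio of 0.02. Fos, a subunit of the AP-1 factor (chromosome 12, 85473890 to 85477273), had 162, 159 and 24.5 CPM on the day 10 plates and 634, 576, 1221 and 460.1 CPM on the day 17 plates, 5.9-fold higher, and 1544 and 2011 CPM in the other day 17 mice. Fosb, its relative, had 0.0903, 0.251 and 0.0767 CPM on the day 10 plates and 76.4, 29.8, 74.2 and 83 CPM on the day 17 plates, on 6 counts at day 10. Egr1, a zinc finger factor of the same response, was not called, with 422, 124 and 117 CPM on the day 10 plates and 146, 128, 257 and 137 CPM on the day 17 plates. Hspa1a, the inducible heat shock protein 70, had 0.0903, 0 and 0.153 CPM on the day 10 plates and 146, 49, 98.9 and 70.7 CPM on the day 17 plates and 3 counts in all of day 10, so that its ratio of 1210.2 has a counting interval of 414 to 5869.8, and reads may be shared with its near copy Hspa1b. It stood at 292 and 269 CPM in the other day 17 mice. Of 28 heat shock and chaperone genes 4 were higher, the other 3 being Calr, Hsp90b1 and Pdia3 of the endoplasmic reticulum.

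Interferon response genes had no member higher and 3 of 30 lower (Ifih1, Ifi44 and Irf7), with a median log2 ratio of -0.41. Ifih1, the sensor of double-stranded RNA, had 298, 150.2 and 175 CPM on the day 10 plates and 54.8, 77.9, 41.9 and 50 CPM on the day 17 plates. Metabolic and housekeeping lists had few calls. None of 65 ribosomal protein genes, 30 proteasome genes, 28 ribosome biogenesis genes, 7 Bcl2 family genes, 6 MHC class II genes and 5 Gimap genes was called. In the mitochondrial respiration list 1 of 69 was higher (Cox7c), in the lysosome list 2 of 24 were higher (Ctsh and Ctsz), and in the glycolysis list Hk3 and Eno3 were higher and Aldoc lower among 18. Alas1, the first enzyme of heme synthesis in non-erythroid cells, was higher, going from 114 to 419.6 CPM, as the only one called of 11 heme genes. Srxn1, lower, was the only one called of 21 antioxidant genes. Plate sums nonetheless did not overlap for proteasome genes, at 10883 to 11815 CPM at day 10 and 12209 to 14827 CPM at day 17. Antioxidant genes ran from 6900 to 8194 CPM and from 10176 to 11277 CPM. Sums of MHC class II, cholesterol synthesis and heat shock and chaperone genes did not overlap either, with cholesterol synthesis lower at day 17. For MHC class II genes the other day 17 mice went the other way. Their sums were 471 and 481 CPM, below the day 10 plates at 698 to 758 CPM. The sums of proteasome, antioxidant, cholesterol synthesis and heat shock and chaperone genes in those mice lay on the same side of day 10 as here.

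Sums were also made within cells that carried stem markers and none of the megakaryocyte, erythroid, neutrophil, monocyte or basophil lists. Under the plate condition these were 34 cells at day 10 and 62 at day 17, with median counts of 238972 and 92703 and 9 to 21 cells per plate. That condition follows the plate sum of each gene. It asked more of day 17 cells for Mpo and more of day 10 cells for Mllt3, so the cells of the 2 days met unequal limits. Of 8451 genes tested, 326 were higher (3.86%) and 178 lower (2.11%). Without this condition, which was not part of the plan, the class held 30 and 15 cells, 1 of them on plate 8, and 59 of 8100 genes were higher (0.728%) and 375 lower (4.63%). The balance of higher and lower genes thus turned with the choice of cells, and 19 higher and 60 lower genes were called under both.

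Immediate early genes were higher in these cells for 4 of 18 tested members (Fos, Fosb, Jun and Dusp2) and lower for none. Under the plate condition Fos had 148, 157 and 2.88 CPM on the day 10 plates and 1799, 424, 1458 and 211 CPM on the day 17 plates, and 8.82% of day 10 cells against 45.2% of day 17 cells reached 100 CPM. Jun, its AP-1 partner, had 203, 342 and 431 CPM on the day 10 plates and 1185, 752, 1296 and 766 CPM on the day 17 plates, and Dusp2, a phosphatase induced by the same signals, had 8.47, 145 and 77.2 CPM on the day 10 plates and 526, 611, 240 and 886 CPM on the day 17 plates. None of Fos, Fosb, Jun and Dusp2 was called without the plate condition, where the single plate 8 cell had 4.49 CPM of Fos. Mki67 had 1.92, 4.15 and 0.576 CPM on the day 10 plates and 251, 6.22, 279.9 and 160 CPM on the day 17 plates, from 0 of the 34 day 10 cells and 4 of the 62 day 17 cells at 100 CPM. Of 43 G2M genes 4 were higher (Mki67, Plk1, Kif20a and Cdca2), none of which was called without the plate condition, while the median cell had 963 CPM of all G2M genes at day 10 and 513 CPM at day 17. Under the plate condition, 2 of 18 tested brakes on the cell cycle were higher in these cells and none was lower. Of 19 tested stem and progenitor transcription factors, which leave out the markers that chose the cells, none was called. The lower calls of these lists in the sums of all cells were thus not seen for the lists within this class. Plac8 was higher with and without the condition, at 1.92, 17.9 and 29.9 CPM on the day 10 plates and 230.4, 199, 192 and 83 CPM on the day 17 plates with it. Several of these genes were singled out after their values had been seen.

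Cells with megakaryocyte markers and none of the erythroid, neutrophil, monocyte or basophil lists numbered 25 at day 10 and 33 at day 17, with median counts of 415215 and 145180. Of 8333 genes tested, 159 were higher (1.91%) and 245 lower (2.94%). Without the plate condition 8 day 17 cells were left, under the minimum of 10, and no value is given. Of 17 immediate early genes 4 were higher (Fos, Fosb, Jun and Klf2). Fos had 5.13, 179.5 and 73.2 CPM on the day 10 plates and 693, 1361, 2317 and 389 CPM on the day 17 plates, Jun had 275, 399 and 335 CPM on the day 10 plates and 1303, 1468, 911 and 784 CPM on the day 17 plates, and Klf2, a factor of resting lymphocytes and endothelium, had 9.55, 0.499 and 1.92 CPM on the day 10 plates and 163, 36.5, 64.7 and 26.7 CPM on the day 17 plates. Apoe, apolipoprotein E, had 179, 524 and 571 CPM on the day 10 plates and 3359, 1092, 2185 and 1042 CPM on the day 17 plates, and Gadd45g, a stress-induced growth arrest gene, had 60.1, 64.7 and 190.4 CPM on the day 10 plates and 229, 362, 461 and 423 CPM on the day 17 plates. Each day 17 plate lay above each day 10 plate for these 5 genes. Plac8 had 1.63, 17.7 and 46.5 CPM on the day 10 plates and 366, 536, 535 and 192 CPM on the day 17 plates here and 284 and 2281 CPM in all other cells of the 2 days. Irf7, the interferon regulator, was lower with 79.2, 56.7 and 63.6 CPM on the day 10 plates and 6.03, 39.2, 13.9 and 0 CPM on the day 17 plates. S phase genes had no call among 45 and a median log2 ratio of 0.09. Genes named within these cells were picked after their values had been seen, apart from those of the lists.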

How the data were processed

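Whole-number counts per gene and well barcode were deposited by the authors in 2 tables, and only the first was used for the comparison. The submitters' processing notes name GRCm38; aligner, counter and use of molecular identifiers were not given in the sources used here. Of 22971 genes, 1150 on chromosomes X and Y and 445 with no chromosome found in GENCODE release M21 or RefSeq were left out. Barcodes with at least 500 genes and 10000 counts were kept, which hold 97.1 to 99.5% of the counts of each plate. Counts were summed per plate and mouse and scaled to CPM. A call needed a mean of 10 CPM, a 2-fold difference of mouse sums and plates that do not overlap. Members and lists were chosen with earlier results of these data known. Named genes were the 15 largest calls each way at a mean of 50 CPM or more, up to 4 largest and 2 smallest ratios per list, and a fixed set of lineage genes; others are marked in the text, and some genes are not reported here. Intervals of ratios and shares are exact at 95%.

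The plan had cells of a class pass on 100 CPM alone; within stem and megakaryocyte marker cells the plate condition replaced it after the data were seen, and both are given for stem marker cells. Of the genes in the promoter comparison under 80% were matched, so shares of promoters with a motif were not compared between gene groups. Alternatives changed the level limit, the fold, the summing, the scaling, the depth, the cells and the plates. The call rule was also run on simulated plate sums, with a fixed spread between plates and no single cells. That run does not cover genes whose counts lie in few cells. Tools were Python 3.11.15, numpy 2.4.6, pandas 2.3.3, scipy 1.17.1, matplotlib 3.10.9 and, for TMM, R 4.3.3 with edgeR 4.0.16.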

Additional observations from a re-analysis of the deposited data

Results flagged for a closer look

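Among the 4 day 17 plates, 131 plotted or printed values were examined for 1 plate far from the other 3, and 8 were found, where chance gives about 1 in 20, or 6.55. Plate 8 stood apart for Hlf at 151 CPM against 72.6 to 76.3 CPM, for Egr1 at 257 CPM against 128 to 146 CPM, and for the summed antioxidant genes at 11277 CPM against 10176 to 10352 CPM. Plate 7 stood apart for Dntt at 124 CPM against 0.0586 to 9.92 CPM, and for Fosb at 29.8 CPM against 74.2 to 83.0 CPM. Plate 6 stood apart for Mcm5 at 425 CPM against 291 to 310.3 CPM, for the share of cells with neutrophil markers at 34.1% against 21.4 to 23.2%, and for the share with monocyte markers at 31.8% against 21.6 to 22.9%.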

How the results depend on the processing

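No paired analysis was possible because day 10 plates 13 to 15 and day 17 plates 6 to 9 share no replicate number. Against 296 higher and 421 lower genes, a mean of at least 1 CPM gave 614 higher, 50 CPM gave 122 and 175, single-cell means 263 lower, thinned cells 254 lower, the deepest cells left out 667 higher, 1.5-fold 658 lower, 3-fold 189 and 171, 2-fold alone 641 and 1043, no highest cell per gene and plate 566 and 171, and no plates 15 and 9 687 and 980. Leaving out 1 plate gave 336 to 650 higher and 430 to 844 lower. The settings without the highest cells, without plates 15 and 9 and with the plate condition were chosen after seeing the data. Higher genes made 41.3% of all calls, 55.8% at 1 CPM, 59.2% by single-cell means, 59.9% thinned, 60.4% without the deepest cells, 52.5% at 3-fold and 76.8% without the highest cells, where the median of all genes shifted by 0.26. Of the calls, 197 higher and 169 lower were shared with single-cell means, 188 and 159 with thinned cells, 186 and 224 without the deepest cells, and 293 and 366 with TMM scaling.

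The median log2 ratio of S phase genes was 1.66 without the deepest cells (0.20 to 0.93 leaving out 1 plate, lowest without plate 13), that of megakaryocyte markers -0.16 (-1.99 to -1.18), of monocyte markers 5.95 (1.37 to 7.80), of neutrophil markers 7.59 (3.12 to 8.44) and of stem cell markers, by single-cell means and thinned, -0.66 and -0.72 (-1.20 to -0.74). Leaving out the deepest cells also took neutrophil or monocyte marker cells away unequally. It removed 4 and left 2 at day 10, and removed 20 and left 67 at day 17. Within stem marker cells, the limit of 100 CPM alone gave 59 higher and 375 lower, and leaving out 1 plate 421 to 867 and 231 to 498. Within megakaryocyte marker cells, 4 markers gave 91 higher, and leaving out 1 plate 257 to 392 and 339 to 607.

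Shares of cells without the plate condition varied when the CPM limit, the number of markers, the depth or the cells were changed as below. For day 10 they ranged from 5.61 to 52.3% for multipotent progenitor and 7.48 to 65.4% for erythroid markers. For day 17 they ranged from 46.5 to 83.7%, 17.7 to 55.2% and, for basophil or mast cell markers, 4.17 to 36.5%. With the plate condition these were 5.61 to 48.6%, 5.61 to 51.4%, 36.1 to 71.5%, 15.6 to 50.7% and 3.12 to 10.8%. For day 10, neutrophil markers gave 2.80% at 200 CPM and 35.5% with 2 markers, monocyte markers 1.20% without the deepest cells, and stem markers 86.9% with 2 markers, 41.1% with 4 and 25.9% with no count minimum, which is below the 33.2% of day 17, against the direction otherwise found. For day 17, neutrophil markers gave 97.9% at 50 CPM, 52.8% at 200 CPM, 94.8% with 2 markers, 50.3% with 4, 88.9% thinned, 66.2% with no count minimum and 25.7% with the plate condition. Day 17 monocyte markers gave 41.3% at 50 CPM, 48.3% with 2 markers, 24.7% with 4 and 25% with the plate condition, megakaryocyte markers 41.3% with 2 and 14.6% with 4, and stem markers 58.3% with 2, 30.9% with 4 and 33.2% with no count minimum. Log2 ratios of F2rl2, Mdm1 and Nek2, all called lower, were 0.22, 0.12 and 3.87 without the deepest cells, and that of Nek2 was 0.22 without the highest cells; the cause was not tested.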
